A study of Mus musculus with 15 samples.

Results

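Transforming growth factor beta (TGF-beta) genes were followed in mouse induced renal tubular epithelial cells (iRECs), which are fibroblasts turned into tubule-like cells by forced expression of kidney transcription factors. The 10 genes, chosen by symbol from the 27179 genes of each table, were the ligand genes Tgfb1, Tgfb2, Tgfb3 and Inhba, the receptor genes Tgfbr1 and Tgfbr2, the matrix store genes Ltbp1 and Ltbp2, and Tgfbi and Skil, which TGF-beta is known to induce. Cells were kept for 7 days in Matrigel (an extract of basement membrane), fibrin (the clot polymer) or collagen I (a fibrillar collagen of interstitial matrix), each filled by hand, or were bioprinted by inkjet into a mix of fibrin and collagen I, called printed below; 2D cultures on plates were the control. The labels give fibrin and collagen I for the printed cultures, while the name of their deposited table mentions collagen only, and the values do not settle which gel it stands for. All groups shared the same growth medium (REGM) and had 3 libraries each, 15 in all, prepared in parallel from a common pool at passages 35, 48 and 53. The replicates are thus passages of the cultured cells, the labels name no separate animals or clones, and p-values rest on these cultures alone. Whether they include or remove the spread between passages is unknown, since the design formula is not given. The values are those of the authors' 4 deposited tables, which set each microenvironment against a common control of 3 libraries in 2D. They give a base mean (the mean normalized read count over 6 libraries), a log2 fold change of the microenvironment over 2D with its standard error, and an adjusted p, but 0 columns per library, so depth and spread per library are unknown here. The 4 comparisons share their 2D libraries and do not stand for 4 independent repeats. A gene is said to have risen or fallen where the authors' adjusted p lay under 0.05.

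TGF-beta is secreted in a latent form in which its own propeptide holds the ligand inactive, and latent TGF-beta binding proteins tether that complex to fibrillin and fibronectin in the matrix. Integrins, proteases and mechanical pull release the ligand, which brings the type II receptor Tgfbr2 and the type I receptor Tgfbr1 together and activates SMAD2 and SMAD3. In kidney tubules the pathway is known for its part in fibrosis, in loss of epithelial character and in growth arrest.

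Tgfb2 fell in all 4 microenvironments, Ltbp1 fell in Matrigel, and Skil fell in collagen I. In bulk RNA, fewer cells of a type and less RNA per cell cannot be told apart. Of the 40 values (10 genes in 4 comparisons) 6 passed the test, all of them lower, and 7 of the 10 genes passed in none. Matrigel had 2 of the 10 fallen and none risen, where 6.36% of all genes with an adjusted p were called in either direction, 2.32% lower and 4.03% higher. Fibrin had 1 fallen, against 8.30% of all genes called, 3.11% lower and 5.19% higher. Collagen I had 2 fallen, against 11.2% called, 4.65% lower and 6.51% higher. The printed cultures had 1 fallen, against 3.18% called, 0.675% lower and 2.51% higher. Ltbp2 had no adjusted p in Matrigel and collagen I because of its low base mean, so 9 genes could pass there. The median log2 fold change of the 10 genes in the authors' deposited tables was -0.20 in Matrigel, 0.02 in fibrin, -0.18 in collagen I and -0.01 in the printed cultures, where the median of all genes lay between -0.004 and 0.010.

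**Figure D1:**
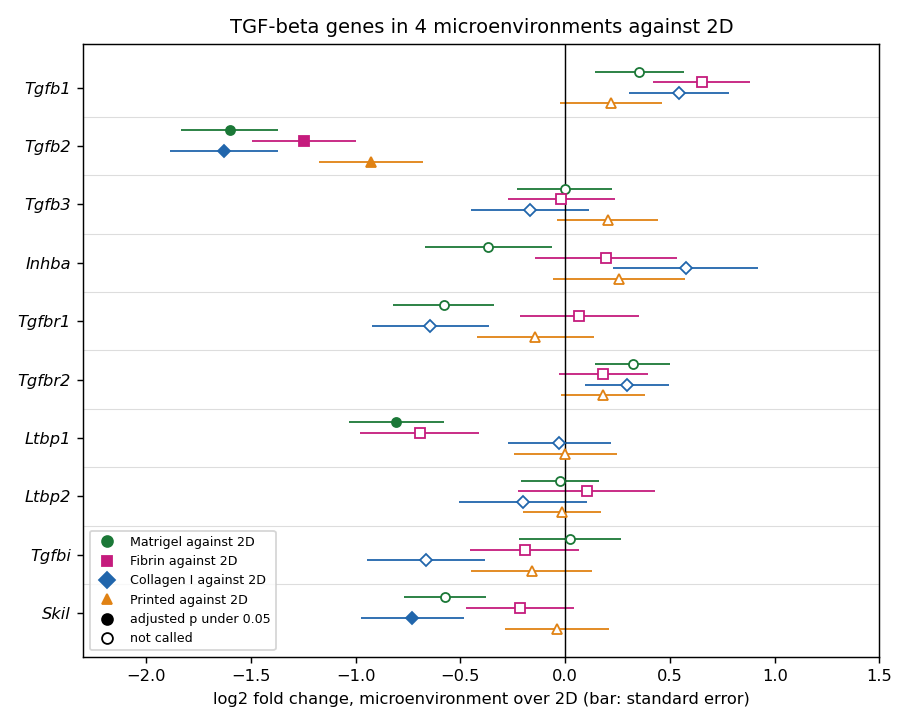
Log2 fold change of each of the 10 genes (rows) in Matrigel, fibrin, collagen I and printed cultures over 2D, from the authors' deposited tables, with bars for the standard error and filled symbols for an adjusted p under 0.05. Tgfb2 is filled in all 4 comparisons, from -1.63 to -0.93; the only other filled symbols are Ltbp1 in Matrigel (-0.81) and Skil in collagen I (-0.73).

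The upstream sequences of Tgfb2 and Ltbp1 are shown because these are the fallen genes for which a RefSeq promoter sequence was at hand (8 of the 10 genes had one; Tgfb3 and Skil were not matched). They are given 5′ to 3′ on the strand of the gene, in GRCm38.p6, for chr1:186705990-186706239 on the minus strand (Tgfb2) and chr17:75005279-75005479 on the plus strand (Ltbp1). The Tgfb2 window lies within the annotated gene, upstream of a RefSeq start site at 186705989. Each starts 250 bases before its start site, and the last 49 bases before that of Ltbp1 were left out because they lie within the annotated gene. Capitals mark the SMAD box CAGAC and the site TGACG of the cyclic AMP response element (CRE), on either strand.
Tgfb2: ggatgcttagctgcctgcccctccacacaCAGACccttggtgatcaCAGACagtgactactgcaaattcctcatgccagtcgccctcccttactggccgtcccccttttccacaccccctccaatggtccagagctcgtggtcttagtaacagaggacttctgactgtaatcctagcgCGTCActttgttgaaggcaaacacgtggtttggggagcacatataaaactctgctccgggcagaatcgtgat
Ltbp1: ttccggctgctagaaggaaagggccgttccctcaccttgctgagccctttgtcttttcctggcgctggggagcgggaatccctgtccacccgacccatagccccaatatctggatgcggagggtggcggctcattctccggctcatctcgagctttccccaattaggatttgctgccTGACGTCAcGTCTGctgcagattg
In the Tgfb2 sequence the SMAD box lies at -221 and -204 from the start site and the CRE site at -72. In the Ltbp1 sequence CRE sites on both strands, at -73 and -70, overlap by 2 bases, and a SMAD box on the opposite strand follows at -64. Among the 10 windows of 250 bases that the 8 genes had, 7 held the SMAD box and 2 the CRE site. Of all 32851 promoter windows of the same length, 42.2% held the SMAD box and 17.8% the CRE site on either strand. The AP-1 motif TGANTCA and the TEAD motif CATTCC were in none of the 10 windows, against 6.75% and 12.6% of all windows. A match of letters is a description and does not show that a factor binds there.

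The ligand genes did not move together. Tgfb2 encodes the isoform whose propeptide lacks the integrin-binding motif that those of TGF-beta 1 and 3 carry. It lies on chromosome 1 from 186622787 to 186709697 (GRCm38.p6, minus strand, gene 21808). The level that the base means imply, in normalized reads, was 258 in Matrigel, 323 in fibrin, 221 in collagen I and 432 in printed cultures, against 774 in 2D, where the 4 tables gave 753 to 790. Every microenvironment thus lay below the whole range for 2D, with the printed cultures nearest to 2D. Collagen I had the lowest of these levels. With the tables brought to one 2D scale, the implied log2 fold changes were -1.68 for Matrigel and -1.56 for collagen I. Which of them lay lower was thus not settled. Here and below, the 2D range is a spread between tables that share the same 3 libraries in 2D. It does not measure variation between cultures, so a level outside it is no test result. The authors' deposited table for Matrigel gave Tgfb2 a log2 fold change of -1.60 ± 0.23 (standard error; 0.329 of the 2D level), with a DESeq2 adjusted p of 1.51e-09. The deposited table of the authors for fibrin had -1.25 ± 0.25 (0.422 of 2D) with a DESeq2 adjusted p of 3.60e-05. For collagen I the authors' deposited table had -1.63 ± 0.26 (0.323 of 2D) with a DESeq2 adjusted p of 4.89e-08. The smallest change was in the authors' deposited table for printed cultures, -0.93 ± 0.25 (0.526 of 2D) with a DESeq2 adjusted p of 0.011. Counted from the lowest Wald statistic (the fold change over its standard error), Tgfb2 stood at rank 22 of 14602 genes in Matrigel, 66 of 14636 in fibrin, 47 of 14064 in collagen I and 44 of 15116 in printed cultures, in the authors' deposited tables. Under an empirical null, in which the quartiles of all Wald statistics set their spread, Tgfb2 passed in all 4, with adjusted p between 1.35e-05 in Matrigel and 0.044 in printed cultures. Exons of Tgfb2 share 124 bases with a gene on the opposite strand, Gm29491, and the strand setting of the counting is not given in the sources used here.

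Tgfb1, the isoform most tied to tissue fibrosis, was the highest of the TGF-beta ligand transcripts and did not pass in any comparison. Its implied level was 1883 in Matrigel, 2229 in fibrin, 1960 in collagen I and 1786 in printed cultures, against 1444 in 2D (1390 to 1488 over the tables). All 4 levels were above the 2D range. In the authors' deposited tables the log2 fold changes were 0.35 ± 0.21 in Matrigel, 0.65 ± 0.23 in fibrin, 0.54 ± 0.24 in collagen I and 0.22 ± 0.24 in printed cultures. The nearest to the threshold was fibrin in the authors' deposited table, with a DESeq2 adjusted p of 0.055 and a 95% interval for the log2 fold change of 0.20 to 1.10. Tgfb1 lies on chromosome 7 from 25687002 to 25705077.

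Tgfb3, on chromosome 12 from 86056743 to 86079041, is known from palate and lung development. It had implied levels of 354 in Matrigel, 329 in fibrin, 284 in collagen I and 440 in printed cultures, against 344 in 2D (334 to 363). Fold changes in the authors' deposited tables lay between -0.17 ± 0.28 in collagen I and 0.20 ± 0.24 in printed cultures on the log2 scale. The 95% intervals in the authors' deposited tables ran from -0.45 to 0.44 in Matrigel and from -0.72 to 0.38 in collagen I, so a decrease of the size seen for Tgfb2 lay outside them. Exons of Tgfb3 overlap those of Gm37804 and Gm48008 on the opposite strand.

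Per kilobase of exon, Tgfb2 transcripts made up 4.86% of the summed level of Tgfb1, Tgfb2 and Tgfb3 in Matrigel, 5.25% in fibrin, 4.13% in collagen I and 8.03% in printed cultures, against 16.3% in 2D. Tgfb1 made up 84.9%, 86.5%, 87.7% and 79.4% in the same order of gels, against 72.6% in 2D. Tgfb3 made up 10.3% in Matrigel, 8.20% in fibrin, 8.16% in collagen I and 12.6% in printed cultures, against 11.1% in 2D, and so lay above Tgfb2 in each microenvironment and below it in 2D. These shares describe mean levels, have no replicate error and rest on exon lengths from GENCODE, which may differ from those that were counted.

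**Figure D2:**
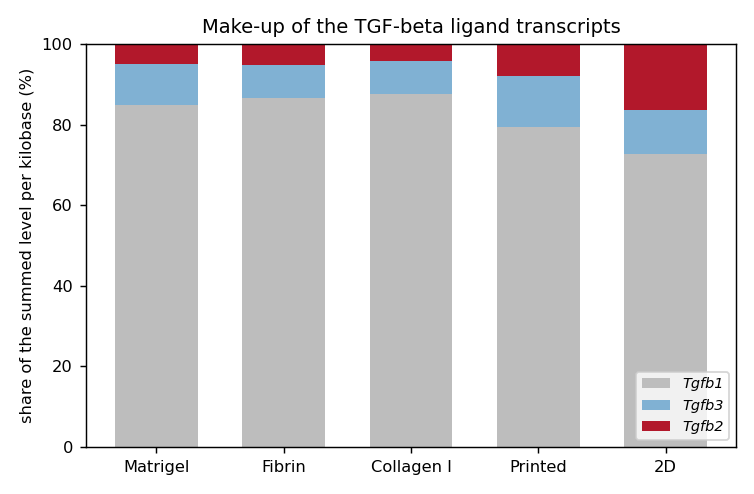
Share of Tgfb1, Tgfb3 and Tgfb2 in their summed implied level per kilobase of exon, in percent, for Matrigel, fibrin, collagen I, printed and 2D cultures. The Tgfb2 share is 16.3% in 2D and between 4.13% and 8.03% in the microenvironments.

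Inhba encodes the beta A chain of activin A, a ligand of the same family that signals through its own receptors to SMAD2 and SMAD3. Per kilobase it was the lowest of these ligand transcripts, at 10.8 in 2D. Its implied levels were 44.8 in Matrigel, 77.0 in fibrin, 105 in collagen I and 96.5 in printed cultures, against 69.1 in 2D (64.5 to 75.2). The level was below the 2D range in Matrigel and above it in the other 3. None of the 4 differences passed: the log2 fold changes in the authors' deposited tables were -0.37 ± 0.30 in Matrigel, 0.19 ± 0.34 in fibrin, 0.58 ± 0.35 in collagen I and 0.26 ± 0.32 in printed cultures. Inhba lies on chromosome 13 from 16004256 to 16031609.

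The receptor genes did not pass in any comparison. Tgfbr2, the type II receptor that binds the ligand first, had the highest level per kilobase of the 10 genes in every condition, 1917 in Matrigel, 1619 in fibrin, 1697 in collagen I and 1781 in printed cultures, against 1482 in 2D. In the authors' deposited tables its log2 fold changes were 0.32 ± 0.18 in Matrigel, 0.18 ± 0.21 in fibrin, 0.30 ± 0.20 in collagen I and 0.18 ± 0.20 in printed cultures. They were all above 0 and none passed.

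Tgfbr1, the type I receptor kinase that phosphorylates SMAD2 and SMAD3, had implied levels of 2327 in Matrigel, 3822 in fibrin, 2015 in collagen I and 3421 in printed cultures, against 3575 in 2D (3423 to 3657). Matrigel, collagen I and, by 2 reads, printed cultures lay below the 2D range, and fibrin lay above it. The log2 fold change in the authors' deposited table was -0.58 ± 0.24 for Matrigel, with a DESeq2 adjusted p of 0.15. For collagen I the authors' deposited table had -0.64 ± 0.28, with a DESeq2 adjusted p of 0.13, so neither passed. Fibrin (0.07 ± 0.29) and printed cultures (-0.14 ± 0.28) were near 0 in the authors' deposited tables. Tgfbr1 lies on chromosome 4 from 47353222 to 47414926 and Tgfbr2 on chromosome 9 from 116087695 to 116175363.

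**Figure D3:**
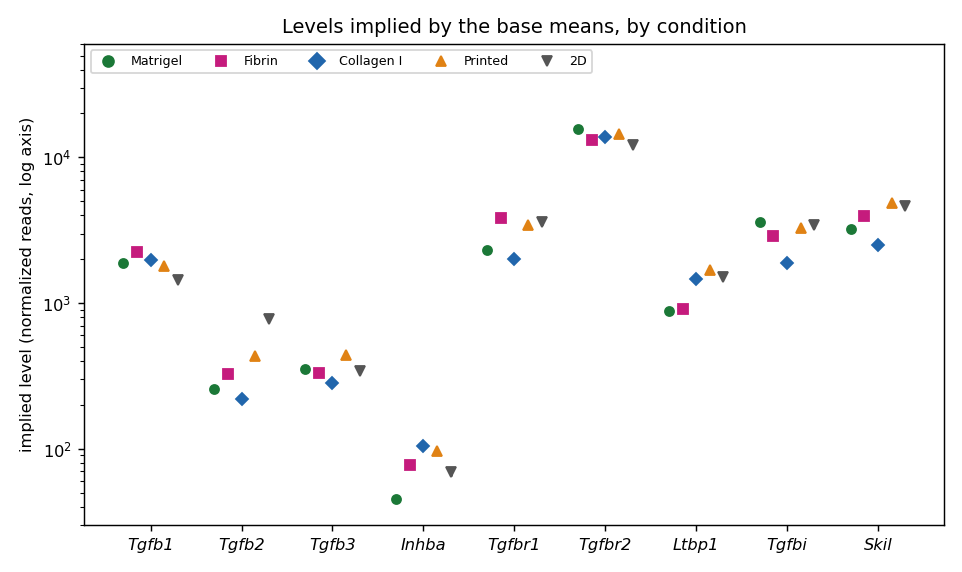
Levels implied by the base means, in normalized reads on a log axis, for 9 of the 10 genes in Matrigel, fibrin, collagen I, printed and 2D cultures; the 2D symbol is the median over the 4 tables, Ltbp2 is left out because its base means were at most 6.72, and levels of different genes are not per length. Tgfb2 is below its 2D level of 774 in all 4 microenvironments, and Ltbp1 is at 879 in Matrigel and 908 in fibrin, against 1509 in 2D.

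Ltbp1 encodes the latent TGF-beta binding protein that links the latent complex to the matrix. The related genes Ltbp3 and Ltbp4, named after their values were seen, were expressed too, with base means of 10252 to 13907 and 3817 to 5028 in the authors' deposited tables, and passed in no comparison. It lies on chromosome 17 from 75005480 to 75392512. Its implied levels were 879 in Matrigel, 908 in fibrin, 1460 in collagen I and 1692 in printed cultures, against 1509 in 2D (1498 to 1597). Matrigel and fibrin were thus low, while the collagen I level was slightly below and the printed level above the 2D range. With the tables brought to one 2D scale, the implied log2 fold changes were 0.05 for collagen I and 0.08 for printed cultures. The side of 2D on which they lay was thus not settled. The authors' deposited table for Matrigel gave a log2 fold change of -0.81 ± 0.23 (0.572 of 2D), with a DESeq2 adjusted p of 0.011. For fibrin the authors' deposited table gave -0.70 ± 0.29, with a DESeq2 adjusted p of 0.12. The values for collagen I (-0.03 ± 0.25) and printed cultures (0.0008 ± 0.24) did not pass in the authors' deposited tables, and their 95% intervals reached down to -0.51 and -0.48. Under the empirical null the Matrigel value did not pass, with an adjusted p of 0.14.

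Ltbp2 belongs to the same family but does not bind latent TGF-beta, and it was hardly detected, with base means of 5.27 in the Matrigel, 6.72 in the fibrin, 3.82 in the collagen I and 5.52 in the printed table as deposited by the authors. In 2D its implied level per kilobase was 0.803, against 219 for Ltbp1. At this level a change was not detectable. In the authors' deposited table for collagen I the log2 fold change of Ltbp2 was -0.20 ± 0.30, while the base means imply -1.42; deposited fold changes of genes with few reads lie nearer to 0 than their levels do. Exons of Ltbp2 share 764 bases with D030025P21Rik on the opposite strand.

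Tgfbi encodes a secreted matrix protein that binds integrins and collagens and is named for its induction by TGF-beta. Its implied levels were 3618 in Matrigel, 2886 in fibrin, 1882 in collagen I and 3250 in printed cultures, against 3437 in 2D (3287 to 3508). Fibrin, collagen I and printed cultures lay below the 2D range and Matrigel above it. Collagen I was the lowest, at a log2 fold change of -0.66 ± 0.28 with a DESeq2 adjusted p of 0.11 in the authors' deposited table. The other 3 lay between -0.19 ± 0.26 in fibrin and 0.02 ± 0.25 in Matrigel in the authors' deposited tables, and none passed. Tgfbi lies on chromosome 13 from 56609586 to 56639359.

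Skil encodes SnoN, a repressor of SMAD-driven transcription that is itself induced by TGF-beta and so closes a feedback loop. Its implied levels were 3214 in Matrigel, 3933 in fibrin, 2489 in collagen I and 4878 in printed cultures, against 4670 in 2D (4485 to 4824). Collagen I was lowest, then Matrigel and fibrin, all below the 2D range. The printed level was just above that range, although the deposited log2 fold change was slightly below 0. With the tables brought to one 2D scale, the implied printed log2 fold change was -0.01, so printed cultures are not placed above 2D. The authors' deposited table for collagen I gave a log2 fold change of -0.73 ± 0.24 (0.603 of 2D), with a DESeq2 adjusted p of 0.030. In Matrigel the value of -0.58 ± 0.20 just missed the threshold in the authors' deposited table, with a DESeq2 adjusted p of 0.051, and it was 0.045 when the adjustment covered only genes whose base mean reached 100. For the same Matrigel value the adjusted p was 0.068 over all genes with a p-value and 0.31 under the empirical null. The collagen I call did not pass under the empirical null, with an adjusted p of 0.60. Fibrin (-0.22 ± 0.26) and printed cultures (-0.04 ± 0.25) did not pass in the authors' deposited tables. Skil lies on chromosome 3 from 31095058 to 31122923.

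The microenvironments were set against each other through the difference of their log2 fold changes, in 6 pairs and 55 tests on these genes, adjusted over all genes with an adjusted p in both tables. None of the 55 passed, and 6 had an unadjusted p under 0.05. The share of all genes called was 1.13% for Matrigel against fibrin, 0.478% for Matrigel against collagen I, 0.548% for collagen I against fibrin, 1.40% for printed against fibrin, 0.890% for printed against collagen I and 0.612% for printed against Matrigel. This test counts the error of the shared 2D libraries in both fold changes and is therefore cautious.

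The decrease of Tgfb2 was smaller in printed cultures than in Matrigel by 0.67 ± 0.34 on the log2 scale (95% interval 0.007 to 1.34), and than in collagen I by 0.70 ± 0.36 (0.00008 to 1.40). Their adjusted p values were 0.9999 and 0.71, and neither passed. Between Matrigel and collagen I the Tgfb2 difference was 0.03 ± 0.35 (-0.65 to 0.71). Skil differed by 0.69 ± 0.35 (0.007 to 1.37) between printed cultures and collagen I, adjusted p = 0.70.

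Ltbp1 was lower in Matrigel than in collagen I by a log2 difference of -0.78 ± 0.34 (-1.43 to -0.12, adjusted p = 0.59) and higher in printed cultures than in Matrigel by 0.81 ± 0.34 (0.15 to 1.46, adjusted p = 0.65). With a correlation of 0.5 between fold changes, which a shared control group of equal size would give, the same Ltbp1 differences had standard errors of 0.24 and passed with adjusted p = 0.032 and 0.028. They were the 2 of the 55 tests that passed on that assumption, which called 4.83% of all genes for Matrigel against fibrin, 4.19% for Matrigel against collagen I, 1.89% for collagen I against fibrin, 5.24% for printed against fibrin, 4.88% for printed against collagen I and 3.04% for printed against Matrigel. The correlation itself could not be measured without values per library. Inhba had the widest difference, -0.94 ± 0.46 (-1.85 to -0.04) between Matrigel and collagen I, and did not pass with either error (adjusted p = 0.73 and 0.074).

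Among 11175 genes whose base mean reached 100 in all 4 tables, the log2 fold changes nearest to those of Tgfb2 over the 4 comparisons were those of Fst and Tln2, at Euclidean distances of 0.37 and 0.49. Fst encodes follistatin, which binds and blocks activins, and Tln2 encodes the focal adhesion protein talin 2. In the authors' deposited tables Fst was at -1.59 ± 0.25 in Matrigel, -1.17 ± 0.31 in fibrin, -1.42 ± 0.24 in collagen I and -0.63 ± 0.23 in printed cultures. It fell in the first 3, and the value for printed cultures did not pass (DESeq2 adjusted p of 0.14 in the authors' deposited table).

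Other genes of the pathway were counted in 6 lists with 93 entries. Of the entries with an adjusted p, 13 of 77 fell and 1 rose in Matrigel, 10 of 74 fell and none rose in fibrin, 15 of 71 fell and 2 rose in collagen I, and 6 of 76 fell and none rose in printed cultures. Those shares of fallen entries, 16.9%, 13.5%, 21.1% and 7.89%, stand beside the 2.32%, 3.11%, 4.65% and 0.675% of all genes given above, with no test of the lists. The lists were chosen with earlier results of these data known, so the contrast is a description only.

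The list of latency, storage and activation genes had 6 of 18 fallen and 1 risen in Matrigel, 3 of 18 fallen in fibrin, 7 of 18 fallen and 1 risen in collagen I and 3 of 18 fallen in printed cultures. Fn1, fibronectin, to which LTBP1 is tethered, was at -1.97 ± 0.21 in Matrigel and -1.73 ± 0.26 in collagen I in the authors' deposited tables. Lrrc32 encodes GARP, which holds latent TGF-beta at the cell surface, and was at -1.13 ± 0.26 in Matrigel and -2.20 ± 0.29 in collagen I in the authors' deposited tables. Fbn1, fibrillin 1, fell in all 4, with -0.93 ± 0.28 in fibrin and -0.81 ± 0.22 in printed cultures in the authors' deposited tables. Mmp2, a gelatinase, also fell in all 4, from -1.46 ± 0.36 in collagen I to -1.05 ± 0.32 in Matrigel in the authors' deposited tables. Htra1, a protease, was at -0.84 ± 0.24 in fibrin and Mmp14, a membrane-bound protease, at -0.72 ± 0.20 in printed cultures in the authors' deposited tables. Fbn2, fibrillin 2, was the risen gene, at 1.01 ± 0.32 in Matrigel and 1.26 ± 0.40 in collagen I in the authors' deposited tables.

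Of the other ligand genes, Inhbb, the beta B chain of activin B, was at -1.35 ± 0.32 in Matrigel, -1.20 ± 0.39 in fibrin and -1.09 ± 0.32 in printed cultures in the authors' deposited tables. In collagen I Inhbb was at -1.02 ± 0.41 and did not pass (DESeq2 adjusted p of 0.091 in the authors' deposited table). Its base means were low, at 30.9 to 34.1. Inha, the inhibin alpha chain, was at -0.96 ± 0.26 in fibrin and -1.40 ± 0.31 in collagen I in the authors' deposited tables. Among receptors and co-receptors the sole gene called was Cd109, a TGF-beta co-receptor, at -1.23 ± 0.25 in Matrigel and -1.29 ± 0.26 in fibrin in the authors' deposited tables. Of the SMAD transducers and regulators with an adjusted p, none of 15 was called in Matrigel, collagen I or printed cultures, where 1, 2 and 1 of the list had an unadjusted p under 0.05. In fibrin 1 of 16 was called, the ubiquitin ligase gene Smurf1 at -0.55 ± 0.19 in the authors' deposited table. Of all genes, 6.36% were called in Matrigel, 11.2% in collagen I, 3.18% in printed cultures and 8.30% in fibrin. At those shares a list of 15 or 16 genes would hold few called genes.

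Of the TGF-beta induced genes with an adjusted p, 4 of 29 fell in Matrigel, 2 of 26 in fibrin, 6 of 24 in collagen I and 2 of 27 in printed cultures, and 1 rose, in collagen I. The risen gene, Plaur, the urokinase receptor, was named after its value was seen, and its DESeq2 adjusted p was 3.18e-05 in the authors' deposited table for collagen I. Nox4, an NADPH oxidase, fell in all 4, with -2.93 ± 0.28 in Matrigel and -1.17 ± 0.36 in fibrin as the extremes in the authors' deposited tables. Col1a1 was at -1.49 ± 0.33 in fibrin and -2.35 ± 0.33 in collagen I, and Acta2 at -1.35 ± 0.30 in Matrigel and -1.04 ± 0.30 in printed cultures, in the authors' deposited tables.

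**Figure D4:**
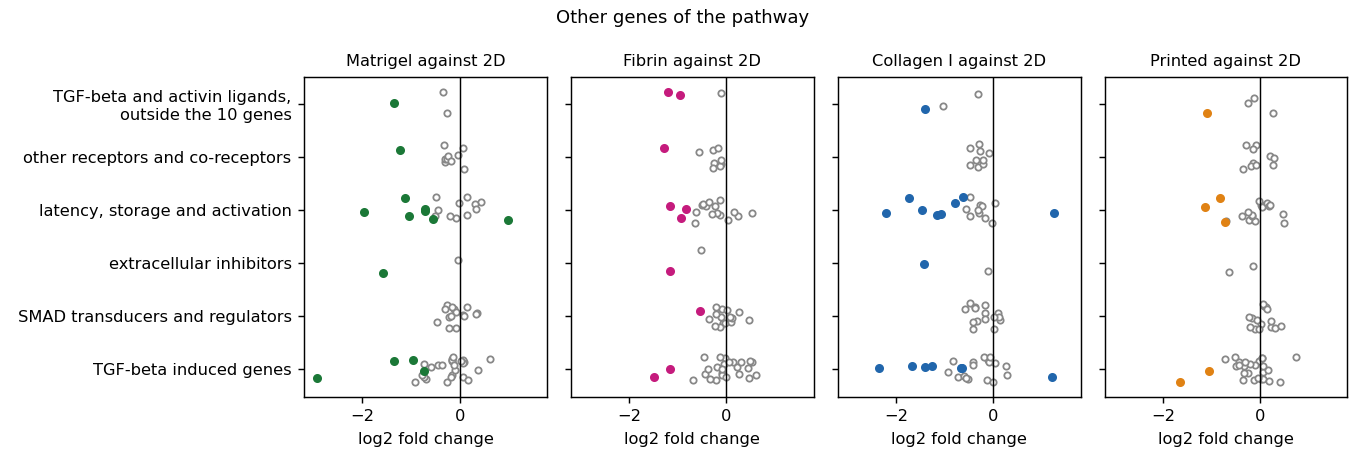
Log2 fold change over 2D of each other pathway gene with an adjusted p, by list (rows) and comparison (panels), from the authors' deposited tables; filled points passed with an adjusted p under 0.05, and the vertical scatter within a row only separates points. Filled points lie below 0 except 1 in Matrigel and 2 in collagen I, and the row of SMAD transducers and regulators holds 1, in fibrin.

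Markers were checked to see which cells the RNA came from. The summed base means of 13 tubule epithelium markers ran from 169405 to 223836 over the 4 tables, with Cdh16 at 47158 or more and Pax8 at 17835 or more. Those of 14 fibroblast markers ran from 6968 to 8440, with 1 to 3 of the 14 at 0 and Thy1 at 0.333 or less, and those of 7 endothelial markers from 14.1 to 26.95. Vim alone made up most of the fibroblast sum, at 4996 of 6968 for Matrigel against 2D and 6472 of 8440 for fibrin against 2D. Of 8 immune markers Ptprc was at 3.02 or less, while Csf1r and Cd68, at 322 to 722 and 327 to 944, made up most of the sum of 689 to 1678. Fibroblast markers moved beside Tgfb2 in part: Col5a1 fell in Matrigel, fibrin and collagen I, Col1a1 in fibrin and collagen I and Pdgfra in fibrin, while S100a4 rose in fibrin, collagen I and printed cultures. Pax8 fell in fibrin and collagen I, and Csf1r fell in Matrigel and collagen I and rose, with Cd68, in printed cultures, while Itgam rose in fibrin. Of the 13 tubule markers 3 rose in Matrigel and 2 in printed cultures, and Krt8 fell in collagen I. Their part in the Tgfb2 result was not tested.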

How the data were processed

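RNA-seq of 15 iREC libraries was compared as 4 microenvironments against 2D, with 3 libraries in each of the 5 groups. Per the submitters' processing notes, DESeq2 1.22.1, featureCounts 1.6.3, STAR 2.6.0b-1, Trim Galore 0.4.3 and FastQC 0.72 were used with mm10. Not given in the sources used here are the strand setting, the annotation and the design formula. A base mean, which the authors deposited, is a signal: normalized read counts averaged over 6 libraries. The fold change and its standard error were deposited on a log2 scale. Wald statistics, deposited by the authors, form a score, and each p-value and adjusted p-value is the authors' own, with no adjusted value for genes of few reads. Recomputing the adjustment by the Benjamini-Hochberg method gave those values again.

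The level in 2D was computed for each table as 2 times the base mean over (1 + 2 to the power of the log2 fold change), and its median and range over the tables are given. The tables share their 2D libraries, so this range is not a spread between cultures. The level in a microenvironment was 2 times its base mean minus the median 2D level of the other 3 tables. Differences between microenvironments were tested with a two-sided normal test and Benjamini-Hochberg adjustment over all genes with an adjusted p in both tables; the test was tried on simulated data. The sign of the fold changes was tested on the 2D level, whose median SD over tables was 0.0383 on the log2 scale for 11175 genes, and 0.0987 or more with any sign turned. Intervals are normal 95% intervals and cover the deposited standard error only. The median standard error where the base mean reached 100 was 0.19 to 0.23. Coordinates count from 1 and come from RefSeq GRCm38.p6, matched by gene identifier, exon lengths from GENCODE vM21 basic, and promoters from RefSeq. Scripts used Python 3.11.15, pandas 2.3.3 and scipy 1.17.1.

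The genes, lists and alternatives were chosen with earlier results of these data known. Named besides the 10 genes were up to 4 called genes of each list and comparison with the largest fold changes, and, for each of the 10 called at least 2 times, the 2 genes with the nearest fold changes. The lists can overlap: Col1a1 is both a TGF-beta induced gene and a fibroblast marker.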

Additional observations from a re-analysis of the deposited data

How the results depend on the processing

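The fall of Tgfb2 passed in Matrigel, fibrin and collagen I under all 5 alternatives tried: adjusted p under 0.01, a minimum log2 fold change of 1 in size, adjustment over all genes with a p-value, adjustment over genes whose base mean reached 100, and the empirical null. In printed cultures it did not pass the first 2, which left 0 of the 10 genes called there. In Matrigel and in collagen I the number called was 1 in place of 2 under adjusted p under 0.01, under the minimum fold and under the empirical null, since Ltbp1 and Skil were lost. With a correlation of 0.5 between fold changes, 1 gene (Ltbp1) in place of 0 was called for Matrigel against collagen I and for printed against Matrigel. That assumption called more genes overall in all 6 pairs: 695 in place of 163 for Matrigel against fibrin, 588 in place of 67 for Matrigel against collagen I, 265 in place of 77 for collagen I against fibrin, 761 in place of 204 for printed against fibrin, 686 in place of 125 for printed against collagen I and 443 in place of 89 for printed against Matrigel.

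Fold changes implied by the base means moved by less than the standard error for 38 of 40 values. The exceptions were Ltbp2 in fibrin (0.61 on the log2 scale) and in collagen I (-1.42). After the tables were brought to one 2D scale, a choice made after seeing the data, 37 of 40 did, with Inhba in Matrigel (-0.80) the further exception. Implied values come from the same libraries and deposited values, so their closeness is no independent check of the fold changes. Leaving out replicates was not run, since the tables hold no values per library. No paired analysis was possible because the columns carry no replicate or passage. Depth per library is unknown.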
